A study of Mus musculus with 6 samples.

Results

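The S100 family of small calcium-binding proteins was examined in mouse liver through 10 genes, S100a1, S100a4, S100a6, S100a8, S100a9, S100a10, S100a11, S100a13, S100a16 and S100g. The members were all probes that are not controls and whose gene name, or whose current symbol by transcript, is 1 of these 10. They were 14 of the 55681 probes of the array, and all 14 passed the filter that left 24901 probes of 17494 named genes for testing.

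Total RNA came from 3 normal livers and 3 liver tumors of male C3H/HeN mice aged 74 to 75 weeks. The mice of both groups were F2 animals of an untreated control arm, bred from purchased pregnant mice and kept on standard diet and tap water. The tumors carried a Ha-ras mutation, which comes from the methods of the study, whereas the sample labels give only normal and tumor. The labels do not state whether any normal liver and tumor shared an animal, so p-values measure only the spread between these samples. Each RNA was hybridized to 1 one-color SurePrint G3 Mouse GE array, on which the fluorescence of a spot reports the RNA bound by a 60-base probe. Relative expression is the processed signal of a probe divided by the 75th percentile of all spots of its array, and it can be compared between arrays for 1 probe but not between probes. Between 44.7% and 48.9% of the spots of an array were well above background, the scanner software's own test against local background. The normal livers lay on 1 slide and the tumors on another, with median local backgrounds of 42, 43 and 45 against 23, 22.5 and 22 intensity units. Slide and tissue therefore cannot be told apart. Hepatocyte markers were bright in both groups, and relative expression of Alb, the serum albumin gene, was 2447, 2449 and 1923 in the normal livers and 2123, 2221 and 2162 in the tumors.

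S100 proteins are built from a pair of EF-hands, helix-loop-helix calcium clamps, and nearly all of them work as dimers. Binding of calcium opens a hydrophobic cleft in which a target protein is caught, so that a rise of calcium is turned into a change of the cytoskeleton, of membranes or of an enzyme. S100a8 and S100a9 are abundant in neutrophils, S100a10 is the calcium-insensitive partner of annexin A2, and S100g, calbindin-D9k, buffers calcium during vitamin D-dependent transport. In RefSeq annotation (GRCm38.p6) S100g lies on chromosome X and the other 9 members lie on chromosome 3.

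Some of the probes share a short stretch of sequence. Among all 10-base patterns with 1 free inner base, TTCNAGGAGT was the one held by the most members, searched on the printed strand after the probe sequences were seen. It was found in 4 of the 14 probes and in 21 of all 55681 probes (0.0377%), and in each of the 4 the reading frame that starts at this stretch held no stop codon. The 4 probes are shown, since they report how alike the measured regions are, with the shared stretch in capitals.
S100a1, second probe: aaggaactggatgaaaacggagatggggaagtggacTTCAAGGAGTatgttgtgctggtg
S100a4, brighter probe: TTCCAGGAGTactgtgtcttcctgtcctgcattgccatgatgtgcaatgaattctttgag
S100a6: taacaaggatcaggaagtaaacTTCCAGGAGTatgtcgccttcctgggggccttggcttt
S100a8: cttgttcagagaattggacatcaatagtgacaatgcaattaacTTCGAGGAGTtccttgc
Outside this stretch the probes differed. At the best ungapped alignment no probe of a member matched a probe of another S100 gene at more than 32 of 60 bases, the pair being S100a4 and S100a2. Whether cross-hybridization added to a signal was not tested.

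Of the 10 members, 3 rose in tumors (S100a11, S100a6 and S100g) and 2 fell (S100a1 and S100a13) at an adjusted p under 0.05 by limma, each gene being counted by its brightest probe. S100g entered the test only through the tumors, being well above background in none of the normal livers. Over all genes tested, 13.4% were called higher and 21.2% were called lower. The values of the 2 groups did not overlap in 7 members, against 52.3% of all genes. The median log2 difference between tumor and normal liver was 0.58 over the members and -0.13 over all genes. The shift of all probes depended on the scaling, being -0.13 at the 75th percentile, -0.0623 after quantile normalization and 0.0388 after scaling to the spike-in controls. Over all probes the calls were 3112 higher and 5127 lower at the 75th percentile, and 3109 higher and 1992 lower after spike-in scaling. Of the 5 calls, that of S100a13 was lost under the spike-in scaling. In such bulk tissue, fewer cells of a type and less RNA per cell cannot be told apart.

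**Figure D1:**
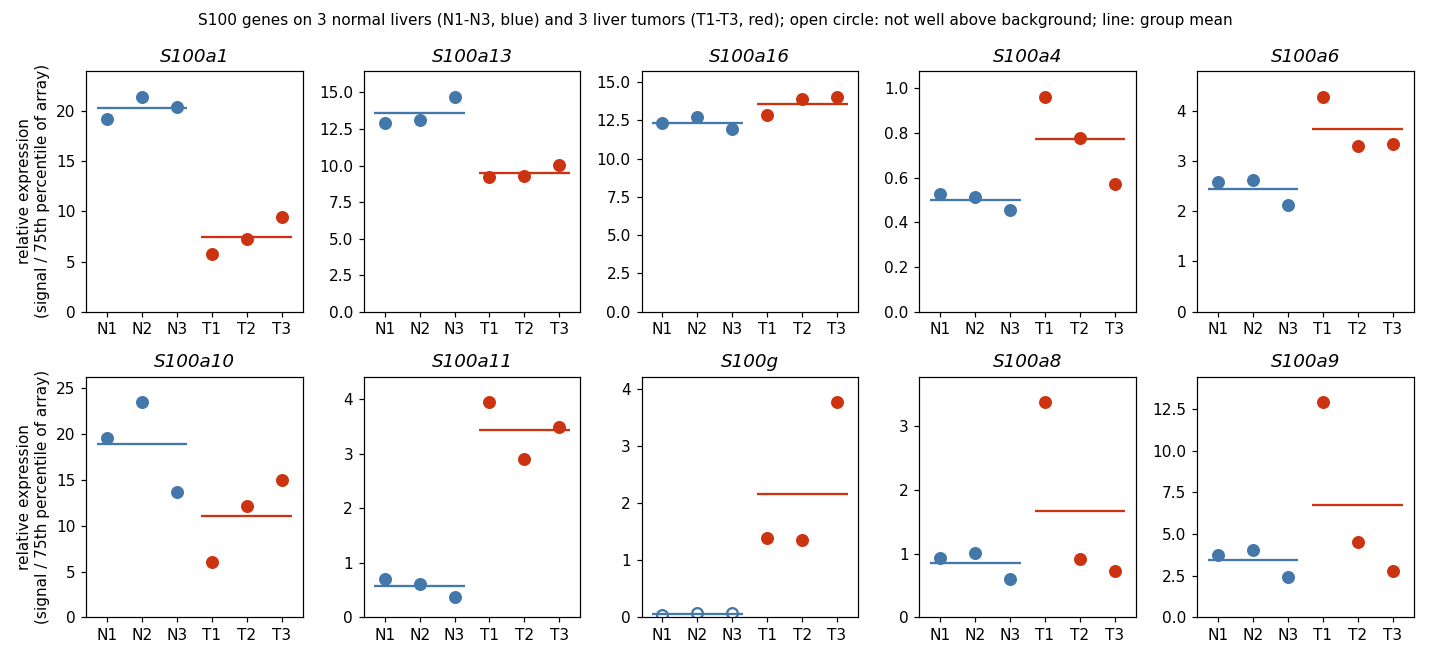
Relative expression (processed signal over the 75th percentile of the array, linear axes from 0, a scale of its own for each gene) of the 10 S100 genes on the 3 normal livers (N1 to N3, blue) and 3 tumors (T1 to T3, red), with a line at each group mean and open circles where the signal was not well above background. S100a1 and S100a13 are lower in all 3 tumors, S100a11, S100g and S100a6 are higher in all 3, and S100a8 and S100a9 stand out only on T1.

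**Figure D2:**
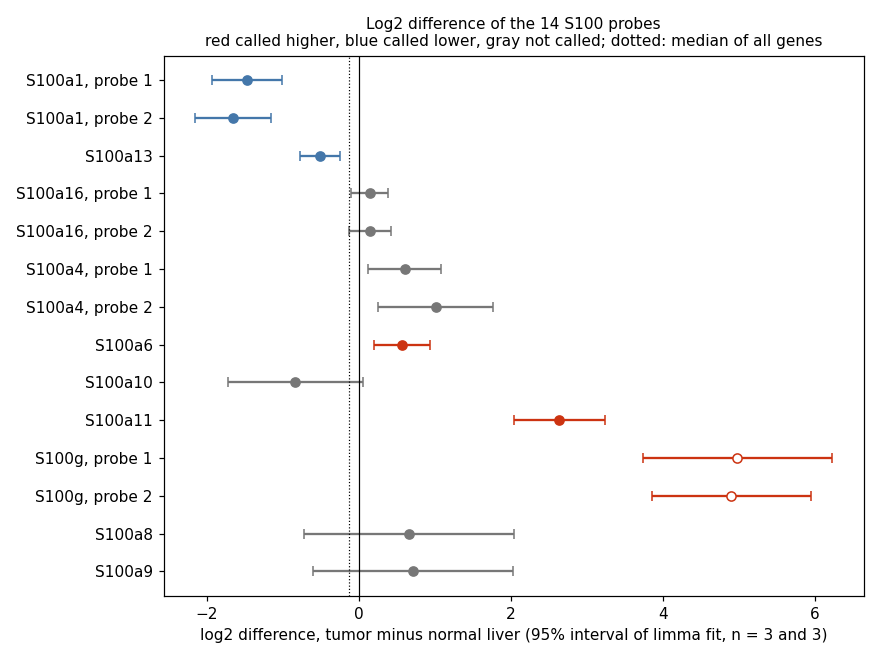
Log2 difference, tumor minus normal liver, of all 14 S100 probes with the 95% interval of the limma fit (3 against 3 arrays), red where called higher, blue where called lower and gray where not called; open circles mark probes not well above background in the normal livers, and the dotted line is the median of all genes, -0.13. The differences run from -1.65 for the second S100a1 probe to 4.98 for S100g.

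S100a1, best known from heart and skeletal muscle, where it binds the calcium pump of the sarcoplasmic reticulum and the ryanodine receptor, was the member that fell most. Its relative expression was 19.2, 21.5 and 20.4 in the normal livers and 5.75, 7.29 and 9.43 in the tumors. The groups were far apart, at 20.4 ± 1.14 against 7.49 ± 1.85 (SD, n = 3 each), and the lowest normal liver was above the highest tumor. The log2 difference was -1.47 (SE 0.19, limma adjusted p = 0.00314), a 2.77-fold decrease. The second probe, the one printed above, gave 11.5, 12.3 and 11.9 in the normal livers and 2.76, 4.11 and 4.76 in the tumors. It fell by 1.65 on the log2 scale (SE 0.21, limma adjusted p = 0.00286), so both probes of the gene moved alike. Among the targets of S100a1, Atp2a2, the calcium pump of the endoplasmic reticulum, had a log2 difference of -0.69 (limma adjusted p = 0.0281). Its call was lost after spike-in scaling (-0.52, adjusted p = 0.161), without a filter on dim probes (0.0940 after adjustment) and without normal liver 1, tumor 2 or tumor 3 (adjusted p of 0.0619, 0.0832 and 0.0709). Ryr1, a ryanodine receptor, was well above background on none of the arrays.

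S100a13, which helps FGF1 leave the cell by a route without a signal peptide, was the other member that fell. Relative expression was 12.9, 13.1 and 14.7 in normal liver and 9.19, 9.29 and 10.04 in tumors. All 3 tumors lay below all 3 normal livers, at 9.51 ± 0.465 against 13.6 ± 1.001 (SD, n = 3 each). The log2 difference was -0.51 (SE 0.11, limma adjusted p = 0.0155). After scaling to the spike-in controls it was -0.34, with an adjusted p of 0.351, and without tumor 2 the adjusted p was 0.0533. Without a filter on dim probes it was 0.0788. Of the proteins known to leave the cell with S100a13, the gene of Fgf1 itself fell by 1.43 on the log2 scale (limma adjusted p = 0.00342). Syt1, synaptotagmin 1, had a log2 difference of -0.80 (limma adjusted p = 0.0203), a call lost after spike-in scaling (-0.63, adjusted p = 0.0927), without the filter (0.0706 after adjustment) and without normal liver 3, tumor 1 or tumor 2 (adjusted p of 0.0524, 0.0561 and 0.0637). Il1a, another cargo of this route, was well above background on 1 array only and was not tested. Relative expression of Fgf1 was 32.3, 30.8 and 29.8 in normal liver and 8.60, 13.5 and 13.1 in tumors, with no overlap, and its second probe fell by 1.91 on the log2 scale.

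S100a1 and S100a13 lie head to head on chromosome 3, transcribed away from one another on opposite strands. In RefSeq (GRCm38.p6) their promoter windows, taken from 250 bases before to 50 bases after each annotated start, share 204 bases. The S100a13 window is shown because both genes of the pair fell, with the bases shared with the S100a1 window in capitals.
S100a13, chr3:90514185-90514484, plus strand: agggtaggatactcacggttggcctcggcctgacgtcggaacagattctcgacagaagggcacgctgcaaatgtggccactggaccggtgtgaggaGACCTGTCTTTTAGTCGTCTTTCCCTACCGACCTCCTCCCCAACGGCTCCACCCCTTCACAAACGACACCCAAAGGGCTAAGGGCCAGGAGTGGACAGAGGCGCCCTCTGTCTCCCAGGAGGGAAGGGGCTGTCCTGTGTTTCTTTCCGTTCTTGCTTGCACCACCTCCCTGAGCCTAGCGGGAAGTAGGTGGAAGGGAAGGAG
The difference between the genes of the pair was larger in tumors than the spread between arrays. It follows from the values of both genes given above and is not separate evidence. On the log2 scale S100a13 minus S100a1 was 0.96 higher in tumors than in normal livers, with 1.26, 0.94 and 0.68 in the 3 tumors relative to the normal mean and SDs of 0.12 in normal livers and 0.29 in tumors. The exact two-sided permutation p was 0.1, the smallest that 3 against 3 arrays allow, and 3 such pairs were compared, the third being S100a9 and S100a8 (a difference of 0.0516, exact permutation p = 1.0). None of the motifs TGANTCA (the AP-1 site), TTGCNNAA (a C/EBP site) and TATAAA (the TATA box) was found in this window on either strand, nor in that of S100a1. The same letters were found, on either strand, in 7.81%, 10.8% and 13.6% of all 32851 promoter windows of this length. Both strands were searched, the AP-1 motif reads the same on both, no matches of different motifs overlapped in the windows of members, and a match is a description of letters only.

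S100a11, a partner of annexin A1 in keratinocytes and in membrane repair, rose most among the members that were measured on all arrays. Relative expression was 0.705, 0.617 and 0.382 in normal livers and 3.94, 2.90 and 3.48 in tumors. Even the lowest tumor was several times above the highest normal liver, and the group values were 3.44 ± 0.519 and 0.568 ± 0.167 (SD, n = 3 each). The log2 difference was 2.64 (SE 0.25, limma adjusted p = 0.00110), a 6.21-fold rise, and it lay between 2.37 and 2.81 when any 1 array was left out. With normexp background correction it was 1.96, with the call kept. A single probe measured the gene, and RefSeq lists a pseudogene of S100a11, so the share of the signal from each copy is uncertain. Of its annexin partners, Anxa1 gave 2.81, 2.83 and 2.19 in normal liver and 3.45, 3.79 and 2.33 in tumors and was not called (log2 difference 0.27, limma adjusted p = 0.375). Anxa2, which also acts in membrane repair, rose and is described with S100a10.

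The promoter window of S100a11 is shown with motif matches in capitals, since this was the only member window with more than 1 match of the AP-1 motif.
S100a11, chr3:93520246-93520545, plus strand: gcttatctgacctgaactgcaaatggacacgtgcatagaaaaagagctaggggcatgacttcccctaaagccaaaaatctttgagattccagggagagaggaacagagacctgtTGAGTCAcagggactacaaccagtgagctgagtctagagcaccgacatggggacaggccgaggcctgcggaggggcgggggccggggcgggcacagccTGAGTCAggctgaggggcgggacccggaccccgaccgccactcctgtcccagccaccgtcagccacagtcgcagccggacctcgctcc
Both matches read TGAGTCA on the plus strand and begin 136 and 38 bases before the annotated start. Among the 9 members with a promoter entry, S100a16 had the only other AP-1 match, TGAATCA, in the second of its 2 windows, 192 bases before the start.

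S100a6, calcyclin, which binds calcyclin-binding protein and several annexins, rose by a small amount. Its relative expression was 2.58, 2.62 and 2.13 in normal livers and 4.28, 3.29 and 3.34 in tumors. Every tumor was above every normal liver, and the log2 difference was 0.57 (SE 0.15, limma adjusted p = 0.0329), a 1.48-fold rise. The call was lost when any 1 of the 6 arrays was left out, with log2 differences between 0.45 and 0.64 and adjusted p between 0.0532 and 0.0909. The call was also lost without a filter on dim probes (adjusted p = 0.113). Cacybp, which links S100a6 to a ubiquitin ligase, was not called (log2 difference -0.18, limma adjusted p = 0.333). Anxa6 had -0.20 (limma adjusted p = 0.356), with 51.9, 52.3 and 39.9 in normal livers and 36.7, 41.6 and 46.2 in tumors, which overlap. The brighter probe of Anxa11 gave -0.32 and missed the threshold (limma adjusted p = 0.0597), while its dimmer probe gave -0.74 and passed it (adjusted p = 0.0394). Anxa2, which rose, is described with S100a10.

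S100a4, which binds non-muscle myosin and is known as a marker of fibroblasts and motile cells, did not pass the test. The brighter probe gave 0.525, 0.513 and 0.457 in normal livers and 0.962, 0.778 and 0.572 in tumors. All 3 tumors were above the normal livers, tumor 3 only just, and the log2 difference was 0.60 (SE 0.20, limma adjusted p = 0.0615). The dimmer probe gave 0.310, 0.384 and 0.381 against 1.05, 0.806 and 0.439, with a log2 difference of 1.01 (SE 0.32, limma adjusted p = 0.0502). Without tumor 3 the brighter probe was called (log2 difference 0.80, adjusted p = 0.0180), and so was the mean of both probes over all arrays (0.81, adjusted p = 0.0477). Myh9, the heavy chain of the myosin that S100a4 binds, rose by 0.81 on the log2 scale (limma adjusted p = 0.00478), from 49.3, 45.2 and 42.5 to 83.8, 83.4 and 72.2 in relative expression.

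S100a16, a widely expressed member, was nearly level. It gave 12.3, 12.7 and 11.9 in normal livers and 12.8, 13.9 and 14.05 in tumors. Although the groups did not overlap, the log2 difference was only 0.14 (95% interval -0.10 to 0.39, limma adjusted p = 0.328), and the second probe also gave 0.14 (95% interval -0.14 to 0.42), with overlapping groups.

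The gene of annexin A2 rose in tumors while that of its partner S100a10 was not called. S100a10, which holds annexin A2 in a tetramer at the membrane and binds tissue plasminogen activator and plasminogen there, gave 19.5, 23.4 and 13.7 in normal livers and 6.07, 12.1 and 15.0 in tumors. Tumor 1 was the lowest array, tumor 3 lay above normal liver 3, and the difference was not called (log2 -0.83, SE 0.37, 95% interval -1.72 to 0.05, limma adjusted p = 0.127). Anxa2, in contrast, gave 9.61, 9.72 and 9.42 in normal livers and 76.6, 69.2 and 80.1 in tumors. The arrays of each group lay close together and the groups were far apart, with a log2 difference of 2.97 (SE 0.11, limma adjusted p = 3.56e-05). Tested on the difference itself, Anxa2 minus S100a10 was 3.81 higher in tumors on the log2 scale, with 4.60, 3.45 and 3.36 in the 3 tumors relative to the normal mean (exact two-sided permutation p = 0.1, the smallest possible here). This pair was chosen for the test after its values were seen.

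For several other partners of the complex the call depended on the probe or the setting. Ahnak, a giant scaffold protein that binds S100a10 with annexin A2, was not called by its brightest probe (log2 difference -0.13, limma adjusted p = 0.675), while 2 of its other 3 probes were called higher, at 0.62 and, for a probe well above background in only 1 of the normal livers, at 0.85. Plat, tissue plasminogen activator, was well above background in none of the normal livers and in all 3 tumors. Its tumor mean was 1.32-fold above the detection floor of the normal arrays (limma adjusted p = 0.000654 for the fitted difference). Plat entered the test only through the tumors, so this p-value sets them against signals at background. With normexp background correction its log2 difference went from 2.23 to 0.30 and the call was lost (adjusted p = 0.0682). The detection floor of an array was the lowest signal that counted as well above background on it, or the probe's own signal where that was higher. A ratio to this floor compares mean log2 values and is not a confidence limit. Plaur, the urokinase receptor, rose by a fitted 1.87 on the log2 scale (limma adjusted p = 0.00985), from 0.194, 0.187 and 0.107 to 0.890, 0.520 and 0.410. It was well above background in only 2 of the normal livers. The difference became 0.78 with normexp background correction (adjusted p = 0.0174). An unpaired, adjusted variant of the methods' paired, unadjusted test did not call Plaur (adjusted p = 0.106). Plg, plasminogen itself, had a log2 difference of -0.33 that only just passed (limma adjusted p = 0.0468). This call was lost when any 1 array was left out (adjusted p between 0.0763 and 0.134) and under other scalings, with -0.16 (adjusted p = 0.704) after spike-in scaling.

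**Figure D3:**
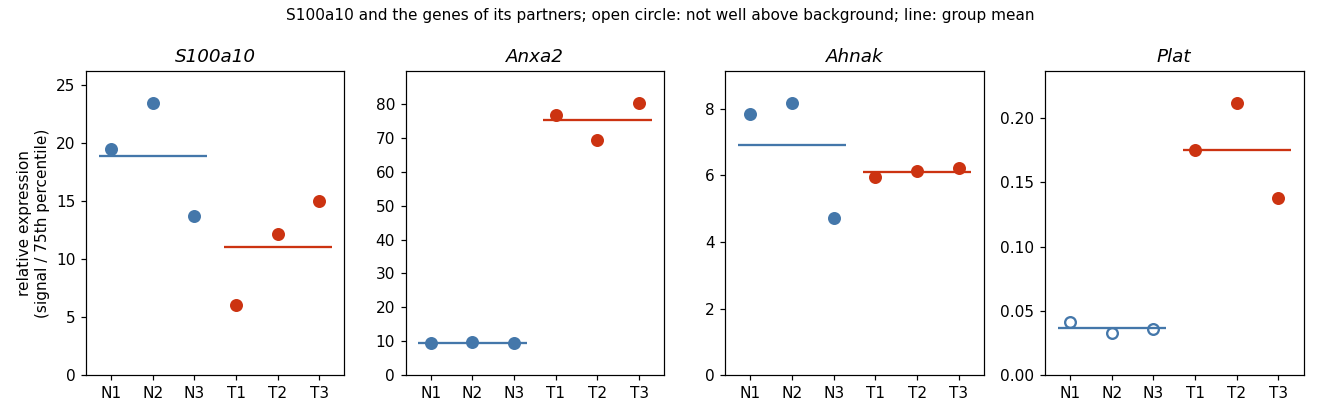
Relative expression (linear axes from 0, a scale of its own for each gene) of S100a10, Anxa2, Ahnak (brightest probe) and Plat on each of the 3 normal livers (N1 to N3, blue) and 3 tumors (T1 to T3, red), with lines at the group means and open circles where not well above background. Anxa2 is at 69.2 to 80.1 in the tumors against 9.42 to 9.72 in the normal livers, while the S100a10 values of the groups overlap.

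S100g had the largest difference of the family. Its brighter probe was well above background in none of the normal livers, at 0.0336, 0.0804 and 0.0840, and gave 1.39, 1.35 and 3.77 in the tumors. All 3 tumors were well above background, and tumor 3 stood above the other two. The tumor mean of S100g was 14.8-fold above the detection floor of the normal arrays, and 13.3-fold above it by the second probe. Both probes were called (limma adjusted p = 0.00151 and 0.000831). Both entered the test only through the tumors, so these p-values set the tumors against signals at background. With probes required well above background on all 6 arrays, S100g was not tested. The second probe was likewise dim in all normal livers, at 0.0391, 0.0695 and 0.0707, and gave 1.33, 1.18 and 3.26 in the tumors. Tumor 3 was the highest array by both probes. The fitted difference of the brighter probe was 4.98 on the log2 scale and became 2.20 with normexp background correction, an alternative that lifts dim spots by a constant, with the call kept. S100g was not called by an unpaired, adjusted variant of the methods' paired, unadjusted test (adjusted p = 0.137).

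The genes that work with S100g in calcium transport were not called with all 6 arrays. Vdr, the vitamin D receptor, gave 0.205, 0.192 and 0.204 in normal livers and 0.282, 0.110 and 0.135 in tumors (log2 difference -0.32, limma adjusted p = 0.510). Tumor 1 decided this, since without it Vdr was called lower (-0.72, adjusted p = 0.0181). Vdr was well above background in only 2 of the 3 tumors, so this fitted difference may rest partly on a signal at background. Trpv6, the apical calcium channel, had a log2 difference of 0.0929 (limma adjusted p = 0.766), and the sign of this difference turned with normexp background correction. Trpv5, the related renal channel, was well above background on none of the arrays, and Atp2b1, the plasma membrane calcium pump, had a log2 difference of -0.0113.

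The S100g promoter window is given because the gene went from background to measured, with matches of the C/EBP and TATA motifs in capitals.
S100g, chrX:162964550-162964849, minus strand: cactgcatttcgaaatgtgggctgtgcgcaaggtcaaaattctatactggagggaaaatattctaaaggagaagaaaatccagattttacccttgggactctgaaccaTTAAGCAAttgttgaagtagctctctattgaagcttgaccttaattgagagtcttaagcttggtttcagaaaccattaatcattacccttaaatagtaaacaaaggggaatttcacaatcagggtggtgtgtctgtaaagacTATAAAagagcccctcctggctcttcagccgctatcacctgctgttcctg
The C/EBP match lies on the minus strand of the window and begins 142 bases before the annotated start, and the TATA match begins at the start itself.

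S100a8 and S100a9, whose products form calprotectin, the metal-binding heterodimer of neutrophil cytosol, were high in 1 tumor only. S100a8 gave 0.923, 1.01 and 0.607 in normal livers and 3.37, 0.912 and 0.732 in tumors. S100a9 gave 3.76, 4.06 and 2.43 in normal livers and 12.9, 4.51 and 2.80 in tumors. Tumor 1 was 3.69 times the median of the other 5 arrays for S100a8 and 3.42 times for S100a9, while the other two tumors lay within the range of the normal livers for S100a8 and within or just above it for S100a9. Neither gene was called, with log2 differences of 0.66 (SE 0.57, limma adjusted p = 0.414) and 0.71 (SE 0.55, limma adjusted p = 0.357). Without tumor 1 the differences were -0.0206 and 0.0931.

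The promoter windows of S100a8 and S100a9 are shown since these genes varied together, with motif matches in capitals.
S100a8, chr3:90668821-90669120, plus strand: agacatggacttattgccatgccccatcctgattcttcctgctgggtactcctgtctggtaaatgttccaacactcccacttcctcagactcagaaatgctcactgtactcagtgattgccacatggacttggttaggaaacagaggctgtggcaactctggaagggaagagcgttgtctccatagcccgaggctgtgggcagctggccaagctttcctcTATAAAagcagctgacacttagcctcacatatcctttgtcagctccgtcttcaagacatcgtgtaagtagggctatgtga
S100a9, chr3:90695672-90695971, minus strand: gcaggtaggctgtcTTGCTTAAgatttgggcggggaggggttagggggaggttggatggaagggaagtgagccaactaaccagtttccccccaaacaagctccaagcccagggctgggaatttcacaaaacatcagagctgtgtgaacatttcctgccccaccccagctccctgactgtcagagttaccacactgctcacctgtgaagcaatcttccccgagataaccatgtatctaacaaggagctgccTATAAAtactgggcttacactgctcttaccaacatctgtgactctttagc
The S100a8 window holds a TATA match that begins 30 bases before the annotated start. In the S100a9 window a C/EBP match, TTGCTTAA, begins 236 bases before the start and a TATA match begins at it. S100a4 also has a TATA match, 31 bases before its start.

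Of 15 neutrophil markers on the array, 8 were tested, 1 rose (Prtn3, a granule protease, by a fitted 1.14 on the log2 scale, though well above background in only 1 of the normal livers) and 1 fell (Itgam, an integrin chain that macrophages share, by 1.65). Of all genes, 13.4% were called higher and 21.2% lower. On 5 of the 15, tumor 1 was the highest array: Prtn3, Ltf, Ngp, Cxcr2 and Retnlg. Ltf and Ngp, granule proteins of developing neutrophils, were well above background on tumor 1 alone. Ltf gave 0.234 on tumor 1 and 0.0222 to 0.0880 elsewhere, and Ngp gave 0.166 on tumor 1 and 0.0252 to 0.104 elsewhere. Cxcr2, the neutrophil chemokine receptor, was 0.308 on tumor 1 and 0.0683 to 0.176 elsewhere, and Retnlg was 0.200 against 0.102 to 0.139. The probes used here for Mpo, Mmp8 and Mmp9 were well above background on none of the arrays. Ly6g, a surface antigen of mouse neutrophils, was lowest on tumor 1, at 1.10 against 1.41 to 2.16. Itgam was also lowest there, at 3.15 against 4.79 to 15.7. The other markers, Elane, Camp, Fpr1, Fpr2 and Csf3r, had their highest value on another array than tumor 1, and none of them was called. The brightest marker, Csf3r, was level at 152.9, 159.3 and 141.2 in normal livers and 155.4, 173.2 and 124.3 in tumors. Since relative expression cannot be compared between probes, a sum over a list follows its brightest probes, and it also holds signals at background. Summed over the list without Csf3r, relative expression was 24.8, 24.5 and 21.8 in normal livers and 12.7, 13.2 and 11.5 in tumors. Without Itgam as well they were 9.49, 8.80 and 10.699 in normal livers and 9.59, 7.42 and 6.72 in tumors. With both genes the sums were 177.7, 183.8 and 163.0 against 168.2, 186.4 and 135.8. The part of neutrophils in the values of tumor 1 was not tested.

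**Figure D4:**
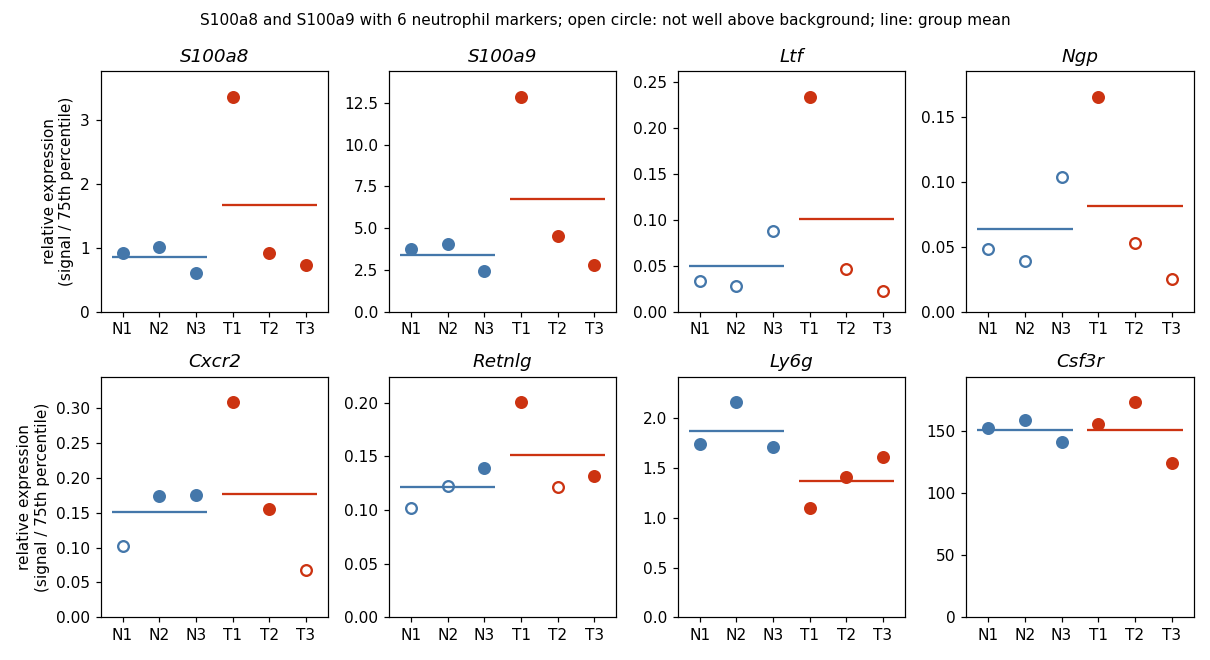
Relative expression (linear axes from 0, a scale of its own for each gene) of S100a8, S100a9 and 6 neutrophil markers on the 3 normal livers (N1 to N3, blue) and 3 tumors (T1 to T3, red), with lines at the group means and open circles where not well above background. S100a8, S100a9, Ltf, Ngp, Cxcr2 and Retnlg are highest on T1, Ly6g is lowest there and Csf3r is not set apart. The markers shown are part of a list of 15, of which 5 were highest on T1. Itgam, not shown, was also lowest on T1.

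Of the receptors that extracellular S100 proteins can engage, Alcam was called and Ager, Tlr4, Cd36 and Bsg were not. Ager, the receptor for advanced glycation end products and the classic S100 receptor, was well above background on none of the arrays. Tlr4, which binds calprotectin, gave 0.161, 0.212 and 0.213 in normal livers and 0.182, 0.148 and 0.151 in tumors and was not called (log2 difference -0.28, limma adjusted p = 0.225). Alcam, an adhesion molecule of the immunoglobulin family on the receptor list, rose by 1.54 on the log2 scale (limma adjusted p = 0.000860), from 4.93, 5.73 and 5.96 to 18.1, 14.3 and 15.9. Cd36, a scavenger receptor, gave 0.434, 1.29 and 0.259 in normal livers and 1.71, 1.48 and 1.998 in tumors, and its log2 difference of 1.71 missed the threshold (limma adjusted p = 0.0546). Bsg, basigin, overlapped between the groups (log2 difference 0.24, limma adjusted p = 0.386).

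Among all 32 partner and receptor genes on the array, 28 were tested, of which 7 were called higher, 5 lower and 16 were not called, with a median log2 difference of -0.0226. Over all genes 13.4% were called higher and 21.2% lower. Those called higher were Anxa2, Anxa5, Myh9, Mdm2, Alcam, Plat and Plaur, and those called lower were Fgf1, Syt1, Atp2a2, Lcp1 and Plg. The partner with the largest decrease was Lcp1. This gene of L-plastin, an actin-bundling protein of blood cells, fell by 1.93 on the log2 scale (limma adjusted p = 0.00399), with 10.2, 10.2 and 9.58 in normal livers and 1.81, 2.53 and 3.92 in tumors. Anxa5, an annexin that binds exposed phosphatidylserine, gave 29.3, 35.8 and 28.0 in normal livers and 80.6, 78.0 and 81.6 in tumors. Mdm2, the ubiquitin ligase of p53 and a protein that S100a4 can bind, rose by 0.91 on the log2 scale (limma adjusted p = 0.0139, and 0.0518 without a filter on dim probes). Anxa5, Myh9, Mdm2, Fgf1, Syt1, Atp2a2, Plg, Ryr1, Trpv5, Atp2b1, Cd36 and Bsg were singled out after their values were seen.

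None of the other S100 genes was called. S100a3, S100a7a, S100a7l2, S100a14, S100b and S100z were well above background on none of the arrays. S100a5 gave 0.417, 0.406 and 0.403 in normal livers and 0.484, 0.383 and 0.448 in tumors (log2 difference 0.0950, SE 0.12, limma adjusted p = 0.591). S100pbp, which encodes a binding protein of S100P, was not called either (log2 difference -0.31, limma adjusted p = 0.318). S100a2, looked up after the values were seen, was well above background on 1 array only.

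In annotation order on chromosome 3 the S100 genes run S100a1, S100a13, S100a14, S100a16, S100a3, S100a2, S100a4, S100a5, S100a6, S100a7a, S100a8, S100a9, S100a7l2, S100a11 and S100a10. No other protein-coding gene starts between S100a1 and S100a9, so the 7 members of that stretch include both genes that fell, S100a6 that rose and 4 that were not called. Between S100a1 and S100a10 start 55 other protein-coding genes, largely those of the skin barrier. Of these, 49 were on the array and only 10 were tested, with 1 higher and 4 lower, against 13.4% and 21.2% of all genes. The 3 called with the largest change were Lor, Sprr1a and Tchh, genes of the cornified envelope and hair follicle. Sprr1a rose by 2.68 on the log2 scale (limma adjusted p = 0.00362), from 0.552, 0.577 and 0.232 to 2.71, 3.15 and 2.28. Lor, at 0.460, 0.368 and 0.529 in normal livers, was well above background in none of the tumors. Its normal mean was 3.99-fold above the detection floor of the tumor arrays (limma adjusted p = 0.00840 for the fitted difference). Lor entered the test only through the normal livers. Tchh, at 0.423, 0.431 and 0.319 in normal livers, was well above background in only 1 of the 3 tumors, so its fitted log2 difference of -1.90 (limma adjusted p = 0.0115) rests partly on signals at background.

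Markers of cell types that express S100 genes moved in several ways beside these results, and their part in them was not tested. For comparison with the counts of each list, 13.4% of all genes were called higher and 21.2% lower. Of 13 macrophage and Kupffer cell markers, 12 were tested, 8 fell and the other 4 were not called, and the brightest, Cd5l, gave 38.0, 27.5 and 56.4 in normal livers and 26.0, 14.3 and 16.8 in tumors. The list summed to 155.7, 122.3 and 209.4 in normal livers and 105.7, 64.0 and 68.8 in tumors. As with neutrophil markers, such sums follow the brightest probes and do not measure the amount of a cell type. Of 12 stellate cell and fibroblast markers, all tested, 2 rose (Col1a1 and Reln) and 6 fell, and the brightest, Dcn, fell by 1.64 on the log2 scale. Their sum was 94.2, 93.9 and 110.6 in normal livers and 32.6, 47.4 and 53.6 in tumors, and without Dcn it was 18.5, 16.6 and 14.2 against 14.8, 19.6 and 15.9.

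Of 9 cholangiocyte markers, 7 were tested and 1 rose, Tspan8, a tetraspanin that was also the brightest of the list, from 0.112, 0.160 and 0.139 to 42.0, 34.7 and 61.0. The other 8 summed to 2.83, 3.52 and 2.81 in normal livers and 2.39, 2.45 and 2.64 in tumors, and Krt19, the defining keratin of bile ducts, was not called. Of 9 endothelial markers, all tested, 2 fell, among them the brightest, Clec4g, by 0.49 on the log2 scale, and the list summed to 109.3, 114.5 and 123.5 in normal livers and 85.1, 94.8 and 89.4 in tumors. Of 8 lymphocyte markers, 4 were tested and 1 rose, Cd4, the brightest, with 60.9, 58.8 and 58.8 in normal livers and 235.4, 183.5 and 133.9 in tumors, while Cd3e was not called. Without Cd4 the list summed to at most 12.6 in normal livers and to 12.4, 11.7 and 10.2 in tumors. Of 8 monocyte and dendritic cell markers 7 were on the array and 2 were tested. Cx3cr1, the brightest, rose by a fitted 1.53 on the log2 scale, though well above background in only 2 of the normal livers. Itgax was not called. This list summed to 0.744, 0.772 and 0.580 in normal livers and 1.72, 1.43 and 1.05 in tumors. Of 11 hepatocyte markers, all tested, 1 rose (Apoa1) and 1 fell (Asgr1), and the sums were 9864, 9615 and 8960 in normal livers and 9482, 9553 and 9025 in tumors.

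**Figure D5:**
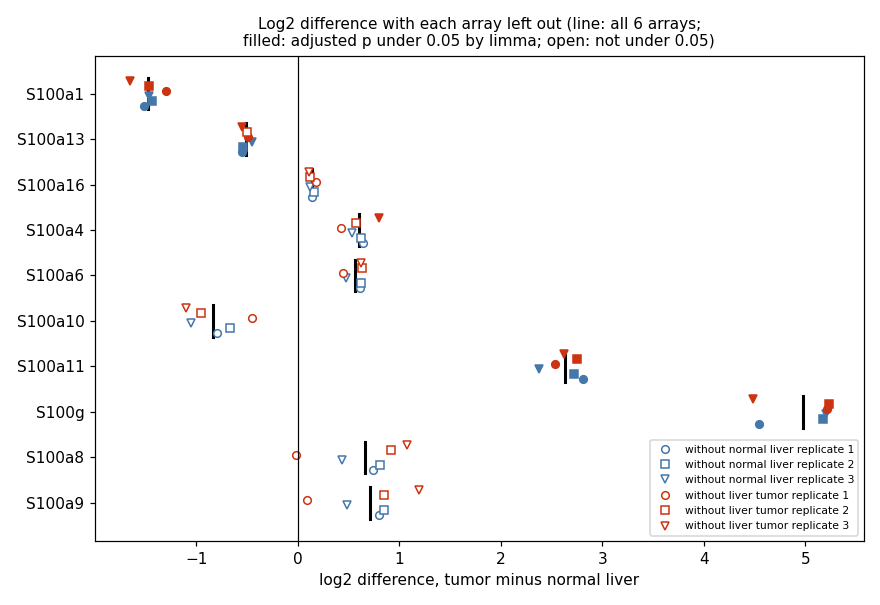
Log2 difference, tumor minus normal liver, of the 10 S100 genes with all 6 arrays (black line) and with each array left out in turn (blue without a normal liver, red without a tumor; filled where the limma adjusted p was under 0.05). S100a1, S100a11 and S100g stay called throughout, S100a6 loses its call without any 1 array, and S100a8 and S100a9 fall to -0.0206 and 0.0931 without tumor 1.

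Leaving out 1 array at a time kept the calls of S100a1, S100a11 and S100g in all 6 fits. S100a1 lay between -1.65 and -1.29 on the log2 scale. The fitted difference of S100g lay between 4.49 and 5.23, though S100g was well above background in none of the normal livers. Each call of a single member was also set against the exact permutation test over the 6 arrays, whose two-sided p was 0.1 for S100a1, S100a4, S100a6, S100a11, S100a13, S100a16 and S100g, the smallest possible. It was 0.2 for S100a10, 0.4 for S100a9 and 0.6 for S100a8, whose groups overlap.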

How the data were processed

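Gene expression of 3 normal livers and 3 liver tumors was measured on one-color arrays. The authors deposited scanner files with spot intensity, background-subtracted and spatially detrended by Feature Extraction (version 10.7.3.1 in the file headers, 12.0.3.1 in the submitters' processing notes), and a table in which each deposited value is a ratio of that intensity to the array's 75th percentile. Control and outlier-flagged spots were left out, replicate spots of a probe were averaged, and the log2 processed signal minus the log2 75th percentile of all spots was used. A probe entered the test where either group had it well above background on each of its 3 arrays. The fit was made with limma (3.58.1, R 4.3.3; lmFit and eBayes, 2-sided, all 6 arrays, Benjamini-Hochberg over the 24901 probes, threshold 0.05). A gene was counted by its brightest tested probe. Probes were named through RefSeq transcripts (27229), symbols (3586), synonyms (565) or the design name (24301). The rule for named genes took all members and other S100 genes, 10 set partners and the 4 other called partners of largest change, the brightest gene of each cell type list and all neutrophil markers, and the 3 called neighbors of largest change. Other partners and cell type markers that the text names were chosen after their values were seen. Members and lists were chosen with earlier results of these data known. The test was checked on simulated data, where it called 150 of 200 changed probes of 24889, 52.2% of those changed 2-fold and 92.4% of those changed 8-fold, with 10 false calls. The simulation used independent normal noise, no slide effect and few changed probes, whereas 3112 probes were called higher and 5127 lower in the data. Its rates therefore do not give the power or the false calls of the test in these data. The number of arrays, 3 a group, limits the precision. Promoter windows are those of RefSeq (GRCm38.p6), with 10 windows for 9 members. Alternatives covered the background correction, the scaling, the filter, the deposited ratios, a replicate block, a trend in eBayes, the mean of a gene's probes and leaving out each array. Student's t-test was also run, paired as the methods state and unpaired, both with Benjamini-Hochberg adjustment.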

Additional observations from a re-analysis of the deposited data

How the results depend on the processing

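With 3 arrays a group and each group on a slide of its own, small differences and slide effects could not be resolved. S100g and Plat could be set only against a detection floor in the normal livers. The count of S100 members called higher was 3, and between 2 and 4 under the alternatives run, except for Student's t-test with Benjamini-Hochberg adjustment. That test called 1 unpaired (S100a11, while S100g and S100a6 were lost) and 0 paired. The methods state a paired test at p under 0.05, without such an adjustment for gene expression. They also judged array genes over an expression threshold as changed only at a 2-fold or larger difference of means. By the fitted differences S100a6 (1.48-fold) and S100a13 (1.43-fold) lay under that mark. With probes well above background on all 6 arrays the count was 2, and S100g was not tested. The count called lower was 2, with 1 after spike-in scaling, 1 without a filter on dim probes, 0 by the paired t-test and 1 to 2 when 1 array was left out, the lowest without tumor 2. Of the partners and receptors, 7 were called higher and 5 lower. The unpaired t-test called 5 and 4, losing Plaur, Mdm2 (adjusted p = 0.0747), Syt1 (0.0808) and Atp2a2 (0.114), and calling Anxa11 lower (0.0416). The paired t-test called 0 higher, and the count called lower was 2 after spike-in scaling, 2 without the filter, 0 by the paired t-test and 2 to 4 when 1 array was left out (3 without normal liver 1, normal liver 3 or tumor 3, and 2 without tumor 2). The count called lower was 6 with a trend in eBayes or the mean of a gene's probes, and 4 with normexp background correction or quantile normalization. The count called higher was 8 after spike-in scaling, with the trend and without normal liver 2. It was 6 without the filter and with probes well above background on all 6 arrays, where Plat was not tested. The paired t-test has 2 degrees of freedom. Over all probes it called 0 (2405 higher and 5014 lower at an unadjusted p under 0.05), against 1739 and 3522 by the unpaired test and 3112 and 5127 by limma, and at an unadjusted p it passed 1 member higher and 2 lower, and 5 partners higher and 6 lower. At an unadjusted p under 0.05 the unpaired test passed 3475 probes higher and 6594 lower. Among these were 3 members higher and 2 lower, and 9 partners higher and 6 lower. Over all probes, spike-in scaling called 3109 higher and 1992 lower. Without the filter 2071 were called higher and 2601 lower. Quantile normalization gave 3491 and 4202. Signs turned only where no call was made: S100a8 lay between -0.0206 (without tumor 1) and 1.08 when 1 array was left out, Ahnak between -0.39 and 0.00780, and Trpv6 between -0.14 and 0.24. Anxa6 turned to 0.00536 after quantile normalization, Ahnak to 0.0340 after spike-in scaling and 0.39 as the mean of its probes, and Trpv6 to -0.0517 with normexp background correction. The causes were not tested. Whether numbers shared by the labels pair the arrays stayed undecided (same-number correlations of 0.07, 0.13 and 0.05, best with the own number for 2 of 3). With 3 arrays a group, such correlations cannot show or exclude shared animals. With the replicate number as a block, 4 members were called higher (S100a4 besides, adjusted p = 0.0478) and 2 lower, 7 partners higher and 4 lower.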
